A study of Mus musculus with 26 samples.

Results

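Plac9, Tmem254 and 4 genes that flank them on mouse chromosome 14 (Anxa11, Duxbl1, Zcchc24 and Slmap) were followed through all 26 RNA sequencing libraries of mesenteric arteries from mice with changes in the channel gene Panx1. Together they are 6 of the 57010 gene identifiers in the deposited counts. Plac9 and Tmem254 were picked by gene identifier because of their measured levels in the Panx1 knockout and Y198F comparisons, and the other 4 by symbol as their neighbours, so values of those 2 comparisons are given as a description with no test. The Y198F controls were part of that choice, so the same holds for Plac9 and Tmem254 wherever these libraries are compared. Pannexin 1 forms plasma membrane channels that release ATP, and the series compares mice that lack it, or that carry 1 changed residue in it, with controls.

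All animals were male and 8 weeks old, and each library came from mesenteric arteries, the resistance vessels that supply the gut. The 8 groups were wild type (WT, 3 libraries), a global Panx1 KO (3), Y198F controls labelled Y198F-/- (3), Y198F mice labelled Y198F+/+ (3), S205A controls labelled S205A-/- (4), S205A mice labelled S205A+/+ (4), Y308F controls labelled Y308F-/- (3) and Y308F mice labelled Y308F+/+ (3). The design text gives 3 vascular trees per genotype, while both S205A groups hold 4 libraries. It calls the controls littermates or WT animals without saying which applies to which group. How the lines were made, and their strain backgrounds, are not given in the sources used here. Nothing states that the libraries of a group come from separate animals, so each p-value measures the spread between these libraries.

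Library totals ran from 14895969 to 23617902 counts. Panx1 had 61 to 96 counts in the WT libraries and 11 to 27 in the Panx1 KO libraries, against 16 to 95 in the 6 other groups. The WT and Panx1 KO ranges did not overlap, while the Panx1 KO range overlapped that of the 6 other groups. The labels do not say which exons are deleted. The names of 9 libraries begin with 22 (the 3 Y198F libraries, S205A controls 1 to 3 and S205A libraries 2 to 4), and what that number stands for is not stated. Summed smooth muscle markers lay between 19630 and 41246 CPM (counts scaled to library size), endothelial markers between 1008 and 8674 CPM and fibroblast markers between 985 and 4122 CPM, so each library held the defining markers of an artery. Pancreatic acinar markers summed to 0.175 to 5.37 CPM and lymphoid markers to 1.60 to 35.2 CPM.

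As background, Plac9 encodes a small secreted protein named for its expression in placenta, and Tmem254 a small membrane protein of poorly known function. Anxa11 encodes annexin A11, which binds membrane phospholipids when calcium rises, and Slmap a tail-anchored membrane protein of muscle and a subunit of the STRIPAK phosphatase complex. Duxbl1 encodes a double homeobox transcription factor and Zcchc24 a protein with a CCHC zinc finger. The RNA of a whole vessel mixes smooth muscle, endothelium and adventitial cells, so fewer cells of a type and less RNA per cell cannot be told apart.

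All 6 are protein-coding genes that lie within 544 kb on chromosome 14 in the build the counts were made on (GRCm39, annotated with GENCODE vM39). From left to right they are Zcchc24 (25712065 to 25769604, minus strand), Anxa11 (25842547 to 25887229, plus strand), Plac9 (ENSMUSG00000095304, 25886804 to 25903634, minus strand), Tmem254 (ENSMUSG00000072676, 25923724 to 25928096, minus strand), Duxbl1 (25979001 to 25990577, plus strand) and Slmap (26131857 to 26256095, minus strand). Plac9 and Anxa11 meet tail to tail and share 426 exon bases on opposite strands, which is 13.1% of the exon bases of Plac9 and 5.48% of those of Anxa11. The sources do not say whether counting used the strand, so reads from the shared bases cannot be assigned. Plac9 and Tmem254 lie 20.1 kb apart on the same strand.

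The number of annotated copies differed between genome builds. The RefSeq table for the earlier build GRCm38.p6 lists 3 Plac9 genes (Plac9a, Gm9780 and Plac9b), 3 Tmem254 genes (Tmem254a, Tmem254b and Tmem254c), 3 Duxbl genes and 3 Cphx genes, a homeobox family, all on chromosome 14. GENCODE vM39 on GRCm39 has 1 gene of each, and the counts table has 1 row of each. Anxa11, Zcchc24 and Slmap have 1 gene in both builds. In GRCm39 the exons of Plac9, Tmem254, Anxa11, Duxbl1 and Zcchc24 had 0 matches elsewhere in the genome of at least 100 bases at 95% identity or more, and those of Slmap had 19 that cover 2.94% of its exon bases. How many copies the animals of each group carry was not measured here.

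Promoter windows of the copies (300 bases, RefSeq on GRCm38.p6) are shown because they place the most upstream start of each annotated copy on the later build; the table has 2 windows for each Tmem254 copy. Capitals mark the longest run that the copies share without a mismatch, 222 bases for Plac9 and 284 for Tmem254. Gm9780 has the same window as Plac9b, and Tmem254c the same as Tmem254a.
Plac9a: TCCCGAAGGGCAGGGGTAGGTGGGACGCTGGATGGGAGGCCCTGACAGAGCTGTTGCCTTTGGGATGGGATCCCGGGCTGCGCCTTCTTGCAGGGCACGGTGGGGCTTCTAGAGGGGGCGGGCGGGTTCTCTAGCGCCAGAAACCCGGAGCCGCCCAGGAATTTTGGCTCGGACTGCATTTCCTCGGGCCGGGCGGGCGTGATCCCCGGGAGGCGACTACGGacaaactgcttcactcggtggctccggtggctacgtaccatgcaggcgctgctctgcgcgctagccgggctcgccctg
Plac9b: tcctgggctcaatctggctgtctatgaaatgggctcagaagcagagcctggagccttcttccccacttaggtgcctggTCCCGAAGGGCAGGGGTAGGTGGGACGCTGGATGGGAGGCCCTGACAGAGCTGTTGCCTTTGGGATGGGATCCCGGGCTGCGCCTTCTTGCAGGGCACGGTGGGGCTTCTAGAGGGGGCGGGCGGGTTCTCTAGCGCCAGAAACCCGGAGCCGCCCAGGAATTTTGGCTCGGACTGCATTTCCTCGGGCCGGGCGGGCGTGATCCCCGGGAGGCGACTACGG
Tmem254a: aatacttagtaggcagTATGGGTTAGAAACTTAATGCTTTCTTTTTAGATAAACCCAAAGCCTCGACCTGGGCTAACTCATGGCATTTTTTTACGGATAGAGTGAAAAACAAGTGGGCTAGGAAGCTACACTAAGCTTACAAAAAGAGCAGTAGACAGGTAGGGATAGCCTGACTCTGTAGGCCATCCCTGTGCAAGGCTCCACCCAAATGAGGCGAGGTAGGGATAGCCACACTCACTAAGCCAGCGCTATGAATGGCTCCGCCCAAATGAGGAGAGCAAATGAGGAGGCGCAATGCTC
Tmem254b: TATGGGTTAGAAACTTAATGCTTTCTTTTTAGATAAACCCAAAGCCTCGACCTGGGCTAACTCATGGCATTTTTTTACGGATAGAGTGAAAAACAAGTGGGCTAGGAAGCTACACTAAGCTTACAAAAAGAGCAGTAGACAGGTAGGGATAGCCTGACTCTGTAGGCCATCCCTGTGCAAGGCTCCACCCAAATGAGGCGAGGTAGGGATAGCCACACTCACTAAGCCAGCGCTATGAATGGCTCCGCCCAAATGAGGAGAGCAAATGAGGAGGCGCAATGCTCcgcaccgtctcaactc
Matched to GRCm39, each window had exactly 1 match on chromosome 14, on the minus strand: Plac9a at chr14:25903268-25903567, Plac9b at chr14:25903346-25903645, Tmem254a at chr14:25928047-25928346 and Tmem254b at chr14:25928031-25928330. The windows of a family overlap in GRCm39, so the starts of its 3 annotated copies fall on the same DNA there. Searched on both strands, the GC box GGGCGG was found 4 times in each Plac9 window and 1 time in that of Tmem254a, 3 times in those of Anxa11 and Zcchc24 and 0 times in that of Slmap. It is present in 35.7% of the 32851 promoter windows in the table. The CCAAT box CCAAT, present in 37.4% of windows, was found 1 time in that of Zcchc24 and 0 times in the others. The TATA box TATAAA, present in 13.6% of windows, and the E-box CACGTG, present in 7.15%, had 0 matches in these windows.

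Plac9 spanned a 5.96-fold range between libraries, from 90.2 to 538 CPM. In WT its level was 328, 396 and 356 CPM, and in Panx1 KO 94.6, 94.3 and 90.2 CPM. In Y198F controls it was 186, 163 and 165 CPM, and in Y198F libraries 370, 303 and 293 CPM. The 3 Panx1 KO libraries were the lowest of all 26 and the 3 Y198F controls the next lowest. S205A controls had 538, 287, 428 and 193 CPM and S205A libraries 250, 235, 282 and 433 CPM. Y308F controls had 290, 307 and 251 CPM and Y308F libraries 248, 254 and 226 CPM. The 2 S205A groups were the most spread, with the highest library (S205A control 1) and a library close to the Y198F controls (S205A control 4) in the same group.

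Tmem254, which had a lower level per length (19.4 against 83.3 CPM per kb of exon for Plac9, as means of 26 libraries), followed the same order at its lower end. Its level was 51.4, 59.2 and 80.7 CPM in WT and 15.1, 18.5 and 20.2 CPM in Panx1 KO. It was 36.2, 35.8 and 32.3 CPM in Y198F controls and 58.5, 52.2 and 59.7 CPM in Y198F libraries. Here too the 3 Panx1 KO libraries were the lowest and the 3 Y198F controls came next, with no overlap between them. S205A controls had 66.8, 53.9, 65.9 and 45.2 CPM and S205A libraries 48.6, 50.9, 46.5 and 68.3 CPM. Y308F controls had 66.6, 58.9 and 52.0 CPM and Y308F libraries 55.4, 50.4 and 48.2 CPM. Each of these 4 groups overlapped the other 3.

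**Figure D1:**
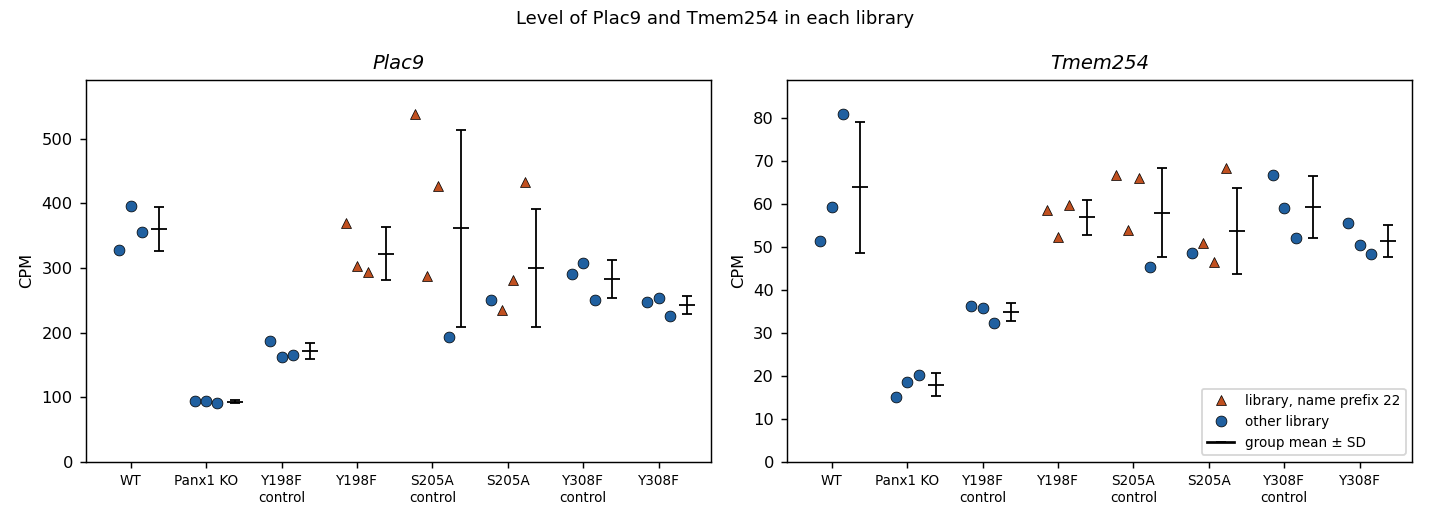
Level of Plac9 (left) and Tmem254 (right) in CPM in each library of the 8 groups, with the group mean ± SD beside the points (n = 3, or 4 in the S205A groups). Triangles are the 9 libraries of the prefix 22. The 3 Panx1 KO libraries lie below all others for both genes, and the Y198F controls lie next above them.

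Ordered by group mean, Plac9 ran from S205A controls (361 CPM ± 152, SD, n = 4) and WT (360 ± 34.3, SD, n = 3) through Y198F (322), S205A (300.1), Y308F controls (283) and Y308F (243) to Y198F controls (171 ± 12.9, SD, n = 3) and Panx1 KO (93.0 ± 2.42, SD, n = 3). Neighbours in this order overlapped down to Y308F. Y308F and Y198F controls did not overlap, nor did Y198F controls and Panx1 KO. For Tmem254 the same 2 steps were the gaps in the order: Y308F (51.3 CPM ± 3.69, SD, n = 3) above Y198F controls (34.8 ± 2.16, SD, n = 3) and these above Panx1 KO (17.9 ± 2.62, SD, n = 3). As a percentage of the WT mean, Panx1 KO stood at 25.8% for Plac9 and 28.1% for Tmem254, and Y198F controls at 47.6% and 54.5%. The remaining 5 groups stood between 67.4% and 100.4% for Plac9 and between 80.5% and 92.8% for Tmem254.

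The 4 flanking genes varied less, except for Duxbl1. Anxa11 lay between 190 and 332 CPM in all 26 libraries, Zcchc24 between 110 and 174 CPM and Slmap between 395 and 750 CPM. Their highest group means were 1.27, 1.265 and 1.22 times their lowest, against 3.88 times for Plac9 and 3.55 times for Tmem254. In Panx1 KO, Anxa11 had 209, 219 and 191 CPM against 226, 249 and 211 CPM in WT, and Zcchc24 had 147.7, 148.0 and 148.1 CPM against 139.6, 156.0 and 152.6 CPM. Slmap had 512, 579 and 488 CPM in Panx1 KO and 521, 739 and 484 CPM in WT. These 3 genes overlapped between the 2 groups. Duxbl1 was near the limit of detection, at 0.481 to 2.82 CPM, and its 9, 27 and 15 counts in Panx1 KO overlapped the 15, 35 and 55 counts in WT. Cphx1, the single Cphx row, had 5 counts in all libraries together.

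**Figure D2:**
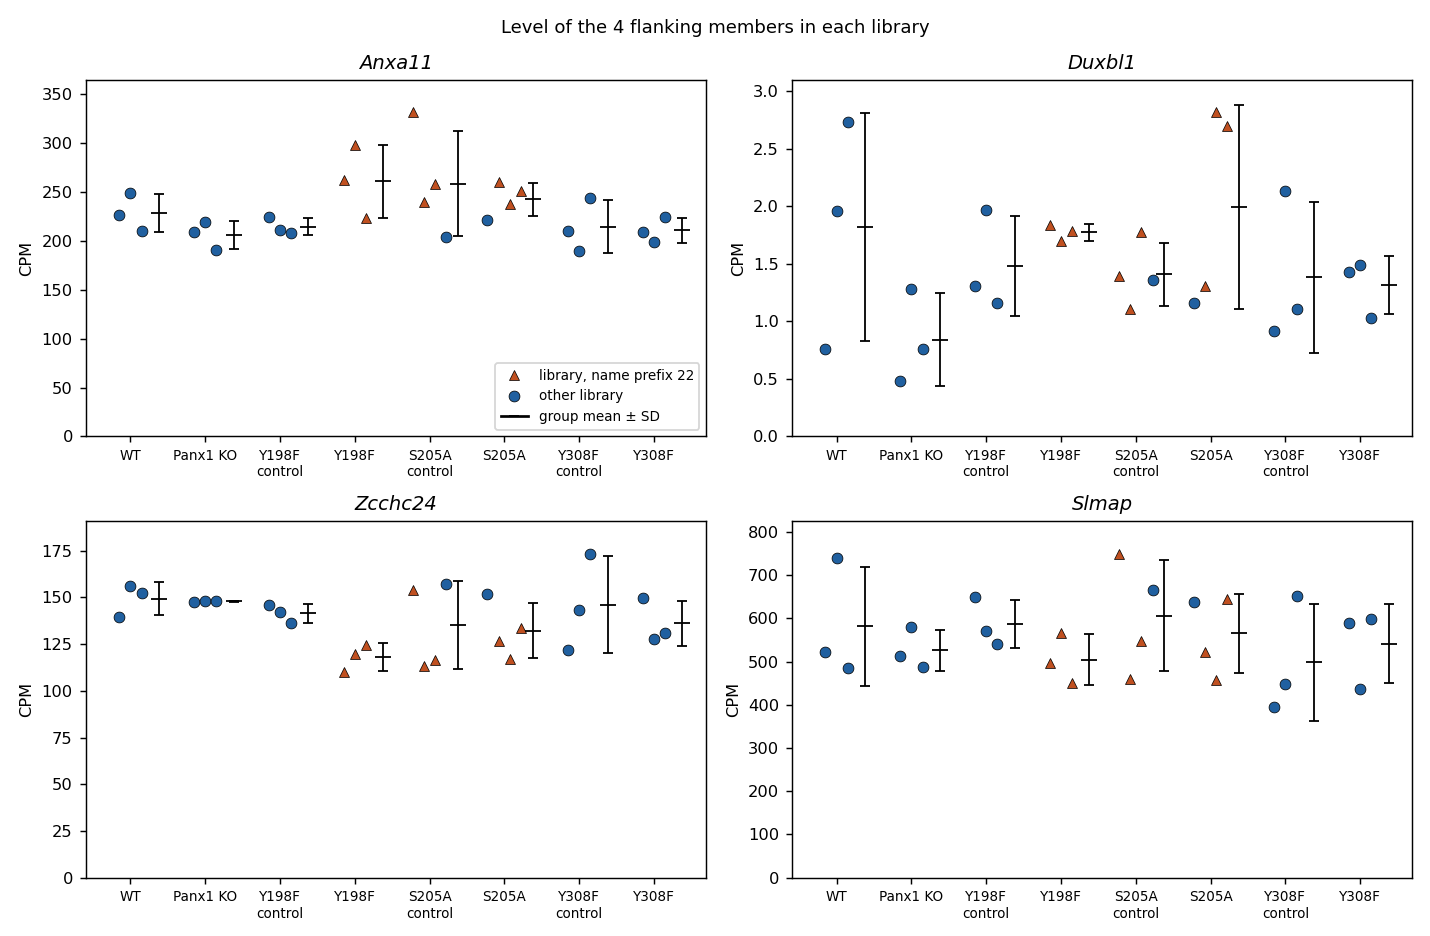
Level of Anxa11, Duxbl1, Zcchc24 and Slmap in CPM in each library of the 8 groups, with the group mean ± SD beside the points (n = 3, or 4 in the S205A groups). Triangles are libraries of the prefix 22. Panx1 KO and WT overlap for all 4 genes.

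The comparison of Panx1 KO with WT asks what loss of the channel changes in the artery, and its values for the members are a description, since Plac9 and Tmem254 were chosen on it. The fitted log2 fold change was -1.96 (SE 0.112) for Plac9 and -1.84 (SE 0.196) for Tmem254. It was -1.12 (SE 0.584) for Duxbl1, -0.16 (SE 0.108) for Anxa11, -0.15 (SE 0.167) for Slmap and -0.024 (SE 0.0966) for Zcchc24. Of the 6 members, 2 were lower in Panx1 KO without overlap, a property of 9.26% of the 16193 genes tested. Marker sums overlapped between the groups: fibroblast markers at 2501 to 2957 CPM in Panx1 KO and 2297 to 3647 CPM in WT, smooth muscle markers at 19746 to 25332 and 19630 to 34524 CPM, and adipocyte markers at 124 to 614 and 318 to 1837 CPM (median log2 fold change -1.57). Of the 6, 6 and 5 genes 0 passed edgeR, while 2, 1 and 0 had an unadjusted p under 0.05, as did 11.2% of all genes. They were the fibroblast genes Pi16 (-0.54 on the log2 scale, SE 0.115) and Lum (0.49, SE 0.128), in opposite directions, and the smooth muscle gene Des (-0.48, SE 0.174). The part of these markers in the levels of Plac9 and Tmem254 was not tested.

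In Panx1 KO against WT no tested neighbour outside the 6 members had a fold change as large as those of Plac9 and Tmem254. Within 1 Mb of the stretch from Plac9 to Tmem254, GENCODE vM39 annotates 74 genes, of which 47 had a row in the counts and 11 that are not members passed the filter on low counts in this comparison. Of those 11, 0 passed edgeR's quasi-likelihood test (adjusted p under 0.05, passed by 0.0309% of all genes tested), and 1 had an unadjusted p under 0.05, as did 11.2% of all genes. That gene was Arf4, a small GTPase of the secretory pathway, at 158 CPM ± 6.10 against 190 ± 19.4 (SD, n = 3 each). Its fitted change was -0.27 on the log2 scale (SE 0.111), without overlap, at an adjusted p of 0.422 in edgeR. The 11 fold changes ran from -0.55 to 0.28 on the log2 scale with a median of 0.073, against a median of 0.0052 over all genes. Zmiz1, a transcriptional coregulator on the Zcchc24 side, had a log2 fold change of 0.10 (SE 0.109), and Dennd6a, a Rab exchange factor beyond Slmap, 0.12 (SE 0.125). Appl1, an endosomal adaptor, had 0.17 (SE 0.134), Pde12, a mitochondrial phosphodiesterase, 0.28 (SE 0.234), Ppif, cyclophilin D of the mitochondrial matrix, 0.28 (SE 0.263) and Il17rd, a receptor-family inhibitor of growth factor signalling, 0.073 (SE 0.153).

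**Figure D3:**
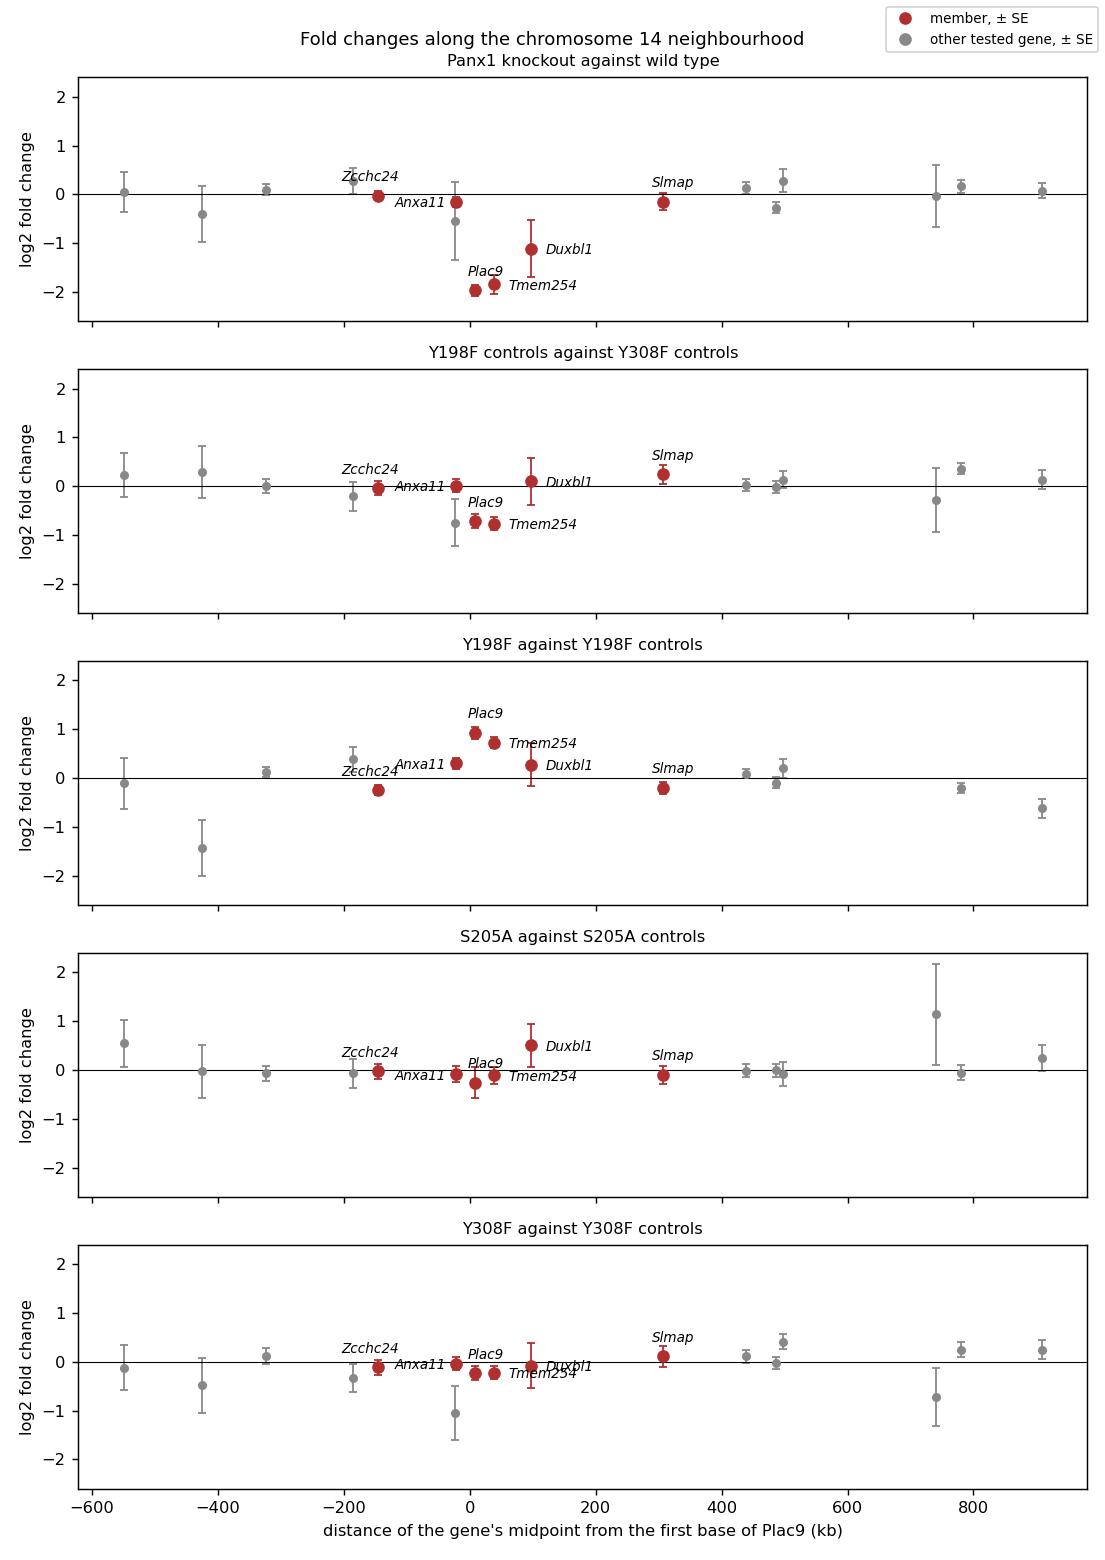
Log2 fold change (± SE) of each tested gene within 1 Mb of Plac9 and Tmem254, against the distance in kb of its midpoint from the first base of Plac9, in 5 comparisons. Members are red and other genes grey. In the top 2 panels Plac9 and Tmem254 lie below 0 side by side. They lie at -1.96 and -1.84 in Panx1 KO against WT and at -0.72 and -0.76 in Y198F controls against Y308F controls. There Anxa11 and Slmap lie within 0.25 of 0. With larger errors, Duxbl1 lies at -1.12 and 0.10 and Anxa11os at -0.55 and -0.75.

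Plac9 and Tmem254 also had unlike mean levels in the Y198F and Y308F controls, which are both labelled -/- for the change of their line. Y198F controls had 60.7% of the mean Plac9 level of Y308F controls (171 CPM ± 12.9 against 283 ± 29.1, SD, n = 3 each) and 58.7% of the mean Tmem254 level (34.8 ± 2.16 against 59.2 ± 7.28, SD, n = 3 each). The libraries did not overlap for either gene. The log2 fold change was -0.72 (SE 0.140) for Plac9 and -0.76 (SE 0.128) for Tmem254, given with no test because the low Y198F control libraries helped to choose both genes. Over all alternatives tried it ran from -0.79 to -0.65 and from -0.85 to -0.67. Of the 6 members these 2 were lower without overlap, as were 6.65% of all genes, and nothing is read from that count.

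Over the whole table this comparison had 0 genes (0%) past edgeR's adjusted threshold, 1118 of 15977 (7.00%) with an unadjusted p under 0.05 and 11 called by DESeq2. No library of either group has the prefix 22. Read the same way, Y198F control 1 has the prefix 24, and Y198F controls 2 and 3 and the Y308F controls have 23. Fibroblast markers summed to 2231 to 2795 CPM in Y198F controls and 1469 to 3008 CPM in Y308F controls, with overlap. With the fibroblast level as a term, added after seeing the data, Plac9 stayed within -0.79 to -0.65 and Tmem254 within -0.85 to -0.67. All 5 endothelial, 5 mesothelial, 5 adipocyte and 3 erythroid markers had negative fold changes (median -0.57, -2.61, -1.10 and -2.21). Positive ones were 4 of 6 fibroblast, 2 of 3 lymphoid, 2 of 6 smooth muscle and 1 of 3 Schwann markers. Of these lists 0 genes passed edgeR, and the part of the lists other than fibroblast was not tested.

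The flanking genes gave intervals around 0. Anxa11 had 225, 211 and 209 CPM in Y198F controls and 210, 190 and 244 CPM in Y308F controls, a log2 fold change of 0.0067 (95% interval -0.29 to 0.31). The interval was -0.36 to 0.28 for Zcchc24, -0.20 to 0.70 for Slmap and -0.98 to 1.18 for Duxbl1, each including 0. Of the 11 other tested genes of the neighbourhood 0 passed, and 2 did not overlap between the groups. Appl1 was the higher of these, with the only unadjusted p under 0.05 (0.36 on the log2 scale, SE 0.120, edgeR adjusted p 0.683), where 7.40% of all genes were higher without overlap. The other was Anxa11os, a long noncoding RNA that lies within Anxa11 on its opposite strand, named after its values were seen. It had 0.591 CPM against 1.00 CPM and its change of -0.75 on the log2 scale (SE 0.479, adjusted p 0.713 in edgeR) was close to those of Plac9 and Tmem254, with a larger error.

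The 3 groups of point mutant controls were also fitted together, which gives no test for Plac9 and Tmem254 since the Y198F controls are among them. Over the whole table edgeR called 0 of 16954 genes while 11.9% had an unadjusted p under 0.05, and the DESeq2 likelihood ratio test called 732. The flanking genes Anxa11, Duxbl1, Zcchc24 and Slmap had adjusted p between 0.612 and 0.993 in edgeR and between 0.663 and 0.998 in DESeq2. S205A control 4, the S205A control outside the prefix 22, decided the edgeR count, which was 1083 without it. The 3 S205A controls left then all have the prefix 22 and the other 2 groups have none, so line and prefix cannot be told apart.

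Y198F libraries against Y198F controls ask what the Y198F change alters, and again serve as a description because the members were chosen on them. Plac9 was higher by 0.93 on the log2 scale (SE 0.120) and Tmem254 by 0.73 (SE 0.108), both without overlap, as were 18.6% of the 16050 genes tested. Zcchc24 was lower (118 CPM ± 7.32 against 141 ± 4.97, SD, n = 3 each; -0.24, SE 0.0971) without overlap, as were 15.6% of genes. Anxa11 (0.30, SE 0.118), Duxbl1 (0.28, SE 0.447) and Slmap (-0.20, SE 0.124) overlapped. All 3 Y198F libraries have the prefix 22 and no Y198F control has it, so the mutation and the prefix cannot be told apart. Summed fibroblast markers did not overlap, at 1327 to 2114 CPM in Y198F and 2231 to 2795 CPM in Y198F controls, and 0 of the 6 genes passed edgeR, while 4 were lower at an unadjusted p under 0.05 (Dpt, Pdgfra, Dcn and Lum, from -1.27 to -0.99 on the log2 scale), where 29.1% of all genes had one in either direction. Of the 6 smooth muscle markers 2 were higher, as were 9.55% of all genes: Tagln, an actin-binding protein (1.14 on the log2 scale, SE 0.177, edgeR adjusted p 0.0036), and Smtn, smoothelin (0.54, SE 0.128, edgeR adjusted p 0.0164). Their summed level overlapped, at 22858 to 31472 and 24017 to 28958 CPM. The part of these markers in the levels of Plac9 and Tmem254 was not tested.

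Of 9 other tested neighbours 0 passed edgeR in Y198F against its controls, 2 had an unadjusted p under 0.05 and 3 were lower without overlap. Of all genes 9.55% passed as higher and 5.48% as lower, 29.1% had an unadjusted p under 0.05 and 15.6% were lower without overlap, so nothing is read from counts of 9 genes. The long noncoding RNA Gm47920 had 0.584 CPM against 1.60 CPM, and its change of -1.42 on the log2 scale (SE 0.572, adjusted p 0.121 in edgeR) exceeded those of Plac9 and Tmem254 in size. Il17rd had -0.62 (SE 0.197, edgeR adjusted p 0.0566) and Appl1 -0.20 (SE 0.0982, edgeR adjusted p 0.199).

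The higher Plac9 and Tmem254 levels of Y198F were seen against the Y198F controls and not against the S205A controls. Against the 3 S205A controls with the prefix 22, the log2 fold change of Y198F was -0.37 for Plac9 and -0.13 for Tmem254. The libraries overlapped for both genes, at 293 to 370 against 287 to 538 CPM and at 52.2 to 59.7 against 53.9 to 66.8 CPM. With all 8 groups in one fit and the prefix as a term it was 0.21 and 0.39. The authors' deposited table for Y198F gives -0.17 (SE 0.234) for Plac9 and -0.03 (SE 0.175) for Tmem254, each smaller in size than its SE. Recomputed with DESeq2 from the counts, the fold changes of that table differed by at most 0.000163 from those of Y198F against the S205A controls, over 18991 genes, and by up to 7.51 from those against the Y198F controls. The authors' deposited table for the knockout gives -1.97 for Plac9 and -1.85 for Tmem254, and its recomputation against WT differed by at most 0.000329 over 14914 genes.

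S205A libraries against S205A controls, and Y308F libraries against Y308F controls, played no part in the choice of the members. In S205A, 0 of 6 members passed, as did 0% of 15709 genes in edgeR (451 had an unadjusted p under 0.05, and DESeq2 called 47). Plac9 had 83.1% of the control mean, with a log2 fold change of -0.26 (95% interval -0.98 to 0.45; edgeR adjusted p 1.00, exact permutation p 0.571, two-sided). Tmem254 had 92.5%, with -0.11 (95% interval -0.49 to 0.27; edgeR adjusted p 1.00, exact permutation p 0.6, two-sided). All 6 members overlapped between these groups, while 1.77% of genes did not. With 1 library left out the Plac9 value ran from -0.49 (without S205A library 4) to -0.0063 (without S205A control 1), and that of Tmem254 from -0.25 to -0.032 (without the same libraries). Among the 6 libraries with the prefix 22 they were -0.39 and -0.16. Summed fibroblast markers were 1431 to 4122 CPM in S205A and 985 to 1453 CPM in its controls, with overlap, and summed Schwann cell markers 55.6 to 105.5 and 35.1 to 53.6 CPM, without overlap. Of these markers 0 of 6 and 0 of 3 passed edgeR, while 4 and 2 were higher at an unadjusted p under 0.05, against 2.87% of all genes in either direction. Their part in the levels of Plac9 and Tmem254 was not tested.

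In Y308F, 0 of 6 members passed, as did 0% of 16037 genes in edgeR (706, or 4.40%, had an unadjusted p under 0.05, and DESeq2 called 0, with 677 at an unadjusted p under 0.05). Plac9 had 85.8% of the control mean (-0.23, 95% interval -0.55 to 0.08; edgeR adjusted p 0.940, exact permutation p 0.2, two-sided). Tmem254 had 86.7% (-0.22, 95% interval -0.51 to 0.07; edgeR adjusted p 0.940, exact permutation p 0.2, two-sided). All 6 members overlapped, while 10.7% of genes did not. Of the other neighbours 0 of 10 passed edgeR in S205A and 0 of 11 in Y308F. Their fold changes ran from -0.079 to 1.14 and from -1.05 to 0.41 on the log2 scale, and 0 and 1 had an unadjusted p under 0.05. That gene was Pde12 (0.41, SE 0.153, edgeR adjusted p 0.940), which like Anxa11os (-1.05, SE 0.553, edgeR adjusted p 0.940) did not overlap in Y308F; the Y308F controls are also those of the comparison between controls. The difference between the S205A and Y308F effects was -0.056 for Plac9 (SE 0.408) and 0.085 for Tmem254 (SE 0.233), with an edgeR adjusted p of 1.00 for both. Anxa11, Zcchc24 and Slmap had intervals that include 0 in both comparisons, within -0.51 to 0.60, and Duxbl1 had fold changes of 0.51 (SE 0.445) in S205A and -0.08 (SE 0.465) in Y308F.

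The levels of Plac9 and Tmem254 varied together from library to library. Over the 20 libraries outside the knockout comparison, Pearson's r of their log2 CPM was 0.88 (Spearman's rho 0.89), with 0.85 in the 9 libraries of the prefix 22 and 0.94 in the 11 others. Taken as deviations from the group means over all 26 libraries r was 0.67. The ratio of the Plac9 to the Tmem254 level (both in CPM) had group means between 4.73 (Y308F) and 6.04 (S205A controls). It was 5.27 ± 0.918 in Panx1 KO and 5.83 ± 1.24 in WT (SD, n = 3 each), so the ratio overlapped where the levels did not. These correlations are descriptions, since the values share their libraries and scaling and both genes were chosen for shared low levels in Panx1 KO and Y198F controls.

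**Figure D4:**
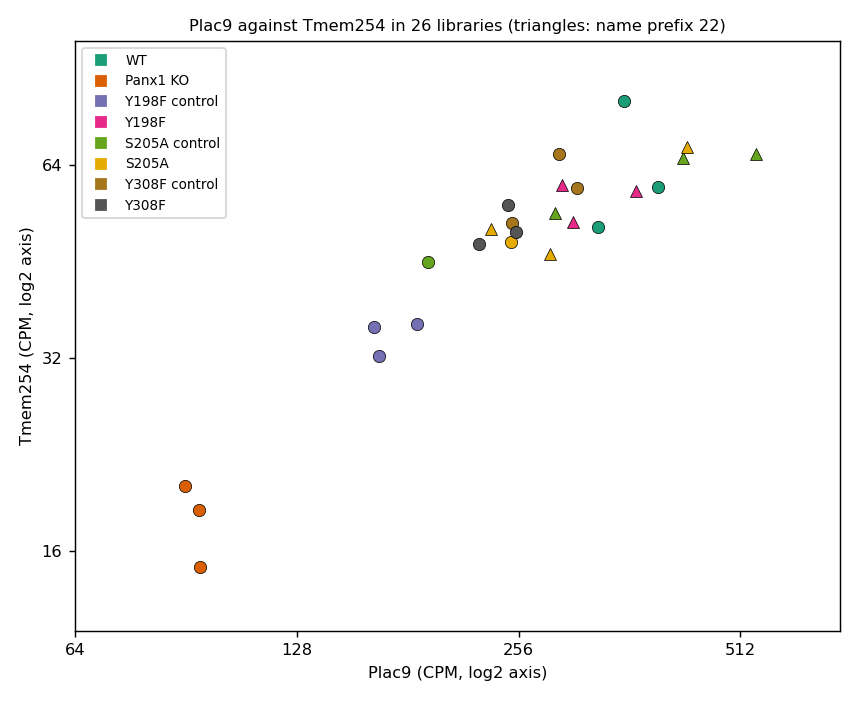
Level of Tmem254 against Plac9 in CPM, both on log2 axes, 1 point per library, coloured by group. Triangles are libraries of the prefix 22. The 3 Panx1 KO libraries lie at the lower left, the Y198F controls above them and the rest in one cloud at the upper right.

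The flanking genes varied with Plac9 to different degrees. Over the same 20 libraries r with Plac9 was 0.64 for Anxa11, which shares exon bases with it, 0.34 for Duxbl1, 0.013 for Slmap and -0.28 for Zcchc24. For Anxa11 it was 0.54 within the prefix 22 and -0.16 in the 11 others, for Slmap 0.77 and -0.51, and for Zcchc24 0.53 and -0.11. As deviations from the group means over 26 libraries r was 0.56 for Plac9 with Anxa11 and 0.51 for Tmem254 with Duxbl1, against 0.67 for Plac9 with Tmem254. Zcchc24 and Slmap, at the 2 ends of the set, had r = 0.67 with each other, and 0.77 as deviations from the group means. Among 12908 genes with a mean log2 CPM of at least 1, the 5 most like Plac9 were Mrpl4 (r = 0.89), Ppp1r16a (0.89), Nacc1 (0.88), Tmem254 (0.88) and Lzts2 (0.88). The 5 most like Tmem254 were Plac9, Mark4 (0.85), Ppp1r16a (0.83), Herpud1 (0.81) and Rita1 (0.81). Some of these values differed by prefix. Mark4 had r = 0.35 with Tmem254 within the prefix 22 and 0.90 in the 11 others, and Lzts2 had 0.93 and 0.59 with Plac9. Y198F controls are among these 20 libraries, so the place of Plac9 and Tmem254 in each other's list follows in part from their choice. With summed fibroblast markers r of Plac9 was -0.36 over the 20 libraries, with smooth muscle markers 0.50, with endothelial markers -0.40 and with Schwann markers -0.46. The signs differed by prefix: r was -0.25, 0.75, -0.73 and -0.55 in the 9 libraries of the prefix 22 and 0.10, -0.09, 0.38 and 0.08 in the 11 others. Mesothelial and erythroid markers had r = -0.15 and -0.0065 in the former and 0.59 and 0.56 in the latter.

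Partners of Anxa11 and Slmap gave a last comparison. Annexins act in membrane repair and trafficking, and the calcium sensor ALG-2 (Pdcd6) binds annexin A11. Of 15 other annexins and ALG-2 partners 12 or 13 were tested in each comparison, and 0 passed in Panx1 KO against WT (median log2 fold change -0.26, all genes 0.0052), in S205A (0.015, all genes -0.013), in Y308F (-0.13, all genes -0.025) or in Y198F controls against Y308F controls (-0.12, all genes -0.0098). In the knockout 3 of 13 had an unadjusted edgeR p under 0.05, all lower, where 1817 of all 16193 genes (11.2%) had one in either direction, and in the other 3 comparisons 0 had. In Y198F against its controls 1 of 13 was higher and 0 lower, where 9.55% of all genes were higher and 5.48% lower. That gene was Pef1, the dimer partner of ALG-2, at 60.9 CPM ± 3.02 against 40.0 ± 0.774 (SD, n = 3 each; log2 fold change 0.62, SE 0.0967, edgeR adjusted p 0.00198).

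STRIPAK joins the phosphatase PP2A to kinases through striatins and acts on Hippo signalling. Of 15 other STRIPAK genes, all tested but 1 in S205A and 1 in Y198F, 0 passed edgeR outside Y198F (unadjusted p under 0.05 in 2 of 15 in the knockout, where 11.2% of all genes had one, 1 of 15 in Y198F controls against Y308F controls, where 7.00% had one, and 0 in S205A and Y308F). In Y198F 2 of 14 were higher and 1 lower, close to the 9.55% and 5.48% of all genes, so these counts say nothing particular to the list. Ppp2r1a, the PP2A scaffold, was higher (0.46, SE 0.104, edgeR adjusted p 0.0133), as was the striatin Strn4 (0.31, SE 0.0959, edgeR adjusted p 0.0496). Cttnbp2nl, an actin-associated partner, was lower (-0.45, SE 0.131, edgeR adjusted p 0.0404). Against the S205A controls of the prefix 22, edgeR called 0 genes in the whole table, while 492 had an unadjusted p under 0.05. For both lists, prefix and mutation cannot be told apart in this comparison.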

How the data were processed

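Gene expression was measured in 26 libraries of 8 groups, as paired reads of 150 bases from poly(A) RNA. Per the labels' protocols, the authors used STAR 2.7.9a (build GRCm39) for mapping, and featureCounts from Rsubread 2.20.0 made the gene counts. The annotation release and strand setting are not given in the sources used here. Raw counts of 57010 genes are in the deposited table. The authors' normalized signal, for 21031 genes, equalled the counts divided by DESeq2 size factors within 4.66e-09. The authors' deposited DESeq2 1.46.0 tables hold log2 fold changes, a test score and p-values.

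Counts were tested with edgeR 4.0.16 in R 4.3.3 (quasi-likelihood, TMM, filterByExpr, robust, only the groups compared) across all genes, with Benjamini-Hochberg adjustment and a threshold of 0.05. CPM levels used TMM over all 26 libraries, and log2 CPM a prior count of 2. Standard errors and 95% intervals came from the fold change and its F statistic. Exact permutation tests were two-sided, with smallest p 0.1 for 3 against 3 and 0.0286 for 4 against 4. Of the identifiers, 56310 matched GENCODE vM39. The fit was tested on simulated data.

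The members, lists and comparisons were chosen with earlier results of these data known. Genes named were the members, tested neighbours within 1 Mb with a mean of at least 1 CPM, and the 5 genes most correlated with Plac9 or Tmem254. Up to 3 genes of each partner list past the threshold were also named. Anxa11os, at a mean of 0.536 CPM, and the marker genes with an unadjusted p under 0.05 were named outside this rule. Not every neighbour that meets it is named. Cphx1 is named as a copy family, and the lists leave out the members. Alternatives were DESeq2 1.42.0, DESeq2 size factors, no filter, all 8 groups in one fit, a replicate block, the library prefix, and each library left out. The Y198F alternatives with other controls or a prefix term, and the fibroblast term, were added after seeing the data. Protein sequences were not used here. Depth ran from 14895969 to 23617902 counts a library.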

Additional observations from a re-analysis of the deposited data

How the results depend on the processing

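The log2 fold changes of Plac9 and Tmem254 kept their sign under every alternative in the S205A, Y308F, knockout and control comparisons, and in S205A and Y308F, where they were tested, neither passed under any. In Y198F controls against Y308F controls, with no test, they were -0.72 and -0.76 with DESeq2 and -0.72 and -0.77 without the filter. In Y198F against its controls the signs reversed against the S205A controls of the prefix 22 (Plac9 -0.37, Tmem254 -0.13, Anxa11 -0.085), with overlapping libraries. With the prefix as a term, which rests on the S205A groups alone, Plac9 and Tmem254 fell to 0.21 and 0.39. Anxa11 was then -0.018, Duxbl1 -0.23, Zcchc24 0.026 and Slmap -0.0042 (from -0.20). In both settings edgeR called 0 genes (492 and 438 at an unadjusted p under 0.05). The other reversals were of values near 0: Anxa11 with all groups in one fit (-0.022) and, with the fibroblast term, Duxbl1 (-0.031) and Zcchc24 (0.044), both in Y198F controls against Y308F controls. Leaving out 1 library reversed values of flanking genes, with ranges of Anxa11 -0.19 to 0.057, Zcchc24 -0.11 to 0.048, Slmap -0.22 to 0.026 in S205A, Anxa11 -0.11 to 0.065, Duxbl1 -0.30 to 0.38, Zcchc24 -0.22 to 0.025, Slmap -0.026 to 0.35 in Y308F, Anxa11 -0.072 to 0.11, Duxbl1 -0.16 to 0.56, Zcchc24 -0.15 to 0.10 in Y198F controls against Y308F controls and Zcchc24 -0.076 to 0.0065, Slmap -0.25 to 0.043 in the knockout. The cause was not tested.

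Counts of genes past the threshold moved more. DESeq2 called 47 in S205A, 11 in Y198F controls against Y308F controls, 117 in the knockout and 732 over the 3 control groups, where edgeR called 0, 0, 5 and 0. Without the filter edgeR called 7 in Y308F, 35 in Y198F controls against Y308F controls, 243 in the knockout and 203 over the 3 control groups. For Y198F, 922 were called with all groups in one fit, against 2411. Leaving out 1 library gave 0 to 1 in S205A, 0 to 1 in Y308F, 0 to 12 in Y198F controls against Y308F controls, 1 to 5 in the knockout, 908 to 2128 in Y198F and 0 to 1083 in the 3 control groups. In S205A the library was S205A 2, in Y308F Y308F control 3, in Y198F controls against Y308F controls Y308F controls 1 and 3, in the knockout any but WT 3, and in Y198F Y198F controls 1 and 3; over the 3 control groups it was S205A control 4 (1083) and, with 11 or fewer, 5 others. Replicate numbers did not pair the samples: correlations of same-numbered deviations ran from -0.45 to 0.44 and no comparison had all above 0.1. With the replicate block the knockout count was 18, and no member of the tested comparisons passed. Over 26 libraries r of Plac9 and Tmem254 was 0.94, which includes the groups on which they were chosen. Duxbl1, at 9 to 55 counts a library, is limited by depth.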
